A study of Mus musculus with 6 samples.

Results

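The vomeronasal receptor genes of the mouse lie in clusters of the Vmn1r and Vmn2r families, and their promoter contacts were read here from promoter-capture Micro-C of embryonic stem cells. Members were the captured promoter fragments, called baits, that overlap an annotated Vmn1r or Vmn2r gene or lie within 2 kb of one. There were 204 such baits among the 19083 seen in the deposited lists and tables, 80 with a Vmn2r gene and 124 with a Vmn1r gene, and 0 baits with both. Of the coding genes that the annotation places on a chromosome, 67 of 123 in the Vmn2r family and 122 of 229 in the Vmn1r family had a bait. Pseudogenes were seldom baited, 6 of 148 in Vmn2r and 2 of 138 in Vmn1r. A bait is counted only if something was listed at it, so captured promoters with nothing listed are outside these numbers.

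The study asked how 2 chromatin remodellers, esBAF with its ATPase Brg1 and INO80 with its ATPase Ino80, affect promoter contacts. Cells were harvested 48 h after transfection with esiRNA, short RNAs cut by an endoribonuclease, directed at Smarca4, the gene of Brg1 (Brg1KD), at Ino80 (Ino80KD), or at EGFP (Control). There were 2 libraries in each group, all from wild type E14 cells, a male line, so every group also shares the transfection. The labels place replicate 1 of all groups in batch 1, replicate 2 of Brg1KD and Ino80KD in batch 3 and replicate 2 of Control in batch 2. Depletion is transient and its extent was not checked here, because these libraries hold DNA contacts and no RNA.

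Vomeronasal receptors are G protein-coupled receptors of the sensory neurons of the vomeronasal organ, where they detect pheromones and other chemical cues. Vmn1r neurons signal through the G protein subunit Gnai2 and Vmn2r neurons through Gnao1, and a neuron expresses one or a few of these genes. Vmn1r coding sequence lies in a single exon, while Vmn2r genes have several exons and encode a long extracellular domain. In embryonic stem cells these genes are not known to act. Such clusters hold many near-identical copies, and reads that fit several copies cannot be assigned to one. The reference genome is that of C57BL/6J and E14 cells derive from another strain, whose copies differ in part.

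The annotated promoter windows of both families were short of CpG dinucleotides. RefSeq windows from 250 bases before to 50 after the gene start (GRCm38.p6) held a median of 1 CpG in 118 Vmn2r promoters and 1 in 206 Vmn1r promoters, against 7 in all 32851 promoters. Median GC content was 38.2% in Vmn2r and 36.0% in Vmn1r, against 52.7% overall. Olfactory receptor promoters also had a median of 1 CpG, and zinc finger gene promoters 14. Shown here are the windows of 2 Vmn2r baits and 3 Vmn1r baits whose contacts recur in the results. They are Vmn2r83 (chr10:79468708-79469007, plus strand), Vmn2r82 (chr10:79356341-79356640, plus strand), Vmn1r191 (chr13:22179533-22179832, minus strand), Vmn1r197 (chr13:22327661-22327960, plus strand) and Vmn1r85 (chr7:13085166-13085465, minus strand). Capitals mark CG and the letters TATAAA on either strand.
Vmn2r83: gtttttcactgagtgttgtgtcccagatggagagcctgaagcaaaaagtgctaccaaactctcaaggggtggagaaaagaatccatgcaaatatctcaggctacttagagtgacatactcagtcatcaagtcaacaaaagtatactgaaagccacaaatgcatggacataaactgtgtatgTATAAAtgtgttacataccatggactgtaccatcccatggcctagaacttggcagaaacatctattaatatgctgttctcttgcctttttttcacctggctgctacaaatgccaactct
Vmn2r82: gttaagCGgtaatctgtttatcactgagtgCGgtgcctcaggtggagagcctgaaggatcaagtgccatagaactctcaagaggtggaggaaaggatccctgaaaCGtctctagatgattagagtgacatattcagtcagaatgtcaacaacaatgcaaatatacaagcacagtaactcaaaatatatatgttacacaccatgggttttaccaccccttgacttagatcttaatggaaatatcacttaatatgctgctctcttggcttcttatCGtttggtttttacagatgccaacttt
Vmn1r191: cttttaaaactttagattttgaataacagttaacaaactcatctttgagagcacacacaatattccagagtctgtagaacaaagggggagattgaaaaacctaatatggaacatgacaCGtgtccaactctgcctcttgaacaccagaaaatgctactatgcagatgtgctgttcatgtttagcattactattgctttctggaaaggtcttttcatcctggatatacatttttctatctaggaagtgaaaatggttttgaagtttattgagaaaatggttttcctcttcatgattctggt
Vmn1r197: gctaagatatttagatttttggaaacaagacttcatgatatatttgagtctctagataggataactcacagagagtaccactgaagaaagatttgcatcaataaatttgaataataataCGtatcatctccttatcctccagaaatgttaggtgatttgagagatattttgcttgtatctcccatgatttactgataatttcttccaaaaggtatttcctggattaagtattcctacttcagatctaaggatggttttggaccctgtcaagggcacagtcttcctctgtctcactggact
Vmn1r85: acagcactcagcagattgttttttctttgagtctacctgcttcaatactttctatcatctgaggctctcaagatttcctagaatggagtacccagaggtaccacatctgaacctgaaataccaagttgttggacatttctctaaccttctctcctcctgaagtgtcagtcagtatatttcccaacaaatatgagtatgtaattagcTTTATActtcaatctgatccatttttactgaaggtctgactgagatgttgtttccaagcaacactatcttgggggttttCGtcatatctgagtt
Vmn2r83 has 0 CpG, Vmn2r82 has 4, and each of the Vmn1r windows has 1, while TATAAA is found in Vmn2r83 and Vmn1r85. Searched on both strands, TATAAA occurred in 22.9% of Vmn2r and 42.2% of Vmn1r windows, against 13.6% of all promoters. The letters CANNTG, the core of sites of basic helix-loop-helix factors, occurred in 97.5% of Vmn2r and 82.0% of Vmn1r windows, against 72.3% of all. In olfactory receptor promoters the shares were 41.0% for TATAAA and 77.5% for CANNTG. These matches describe letters in the windows only. In each window shown, the last 50 bases begin with ATG, so the annotated gene start there lies at the letters of a start codon. Such a window may miss the transcription start, and its letters need not be those of the promoter. How many of the compared windows this concerns was not tested.

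The 6 lists of loops, each a bait with another end and a score of at least 5, held 12313 to 15385 same-chromosome loops per library. The authors' lists give no contact counts, so the sequencing depth is unknown. At vomeronasal baits 763 loops were listed over the 6 libraries, 247 at Vmn2r and 516 at Vmn1r baits. A loop with a vomeronasal bait at each end counts once in these totals and at both baits in the counts per bait. At least 1 loop was listed at 66 of 80 Vmn2r and at 116 of 124 Vmn1r baits. Over the 6 libraries together a Vmn2r bait had a median of 2 loops and at most 33, and a Vmn1r bait a median of 3 and at most 23. The 8 most listed baits held 47.4% of the loops in Vmn2r and 20.9% in Vmn1r. In loops per bait and library the vomeronasal value, 0.623, was below that of olfactory receptor baits, 0.786, and of zinc finger gene baits, 0.924. It was below both in all 6 libraries, with ratios of 0.790 and 0.670 (exact permutation of signs over 6 libraries, p = 0.03125 each, the smallest this test can give). Over all baits the value was 0.735. The sign test measures the spread over libraries and not that between baits. The Vmn2r baits of chromosome 4 and the bait of Vmn1r-ps87 also lie at zinc finger genes and count in both sets.

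The 6 Vmn2r baits of chromosome 4 lie inside the annotated pseudogenes Vmn2r-ps16 and Vmn2r-ps17, which span other genes, and at the ends of zinc finger genes such as Zfp600, Zfp981, Zfp992 and Zfp993. These 6 of 80 baits held 80 of the 247 Vmn2r loops, 10 and 16 in Brg1KD, 15 and 8 in Ino80KD and 21 and 10 in Control, and the groups overlapped. The most listed of all vomeronasal baits is among them (146514300 to 146515659, in Vmn2r-ps16), with 5 and 6 loops in Brg1KD, 4 and 5 in Ino80KD and 7 and 6 in Control, of which 11 reached Zfp982. Among the other Vmn2r-ps16 baits, those at 146447903 to 146449762, 146500907 to 146502766 and 146512025 to 146512884 had 20, 15 and 1 loops over the 6 libraries. The Vmn2r-ps17 baits, at 146155704 to 146157563 and 146160789 to 146162648, had 8 and 3. The main Vmn2r values are given with and without chromosome 4 for this reason, and those given once include it unless stated.

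Fewer loops were listed at Vmn2r baits than at Vmn1r baits once chromosome 4 was left aside. With all baits, the mean over 6 libraries was 0.515 ± 0.121 loops per Vmn2r bait and 0.694 ± 0.176 per Vmn1r bait (SD, n = 6), a ratio of 0.744 that was below 1 in 5 of 6 libraries (exact permutation of signs, p = 0.0938, adjusted over 5 measures 0.234). Without chromosome 4 the Vmn2r mean was 0.376 ± 0.0942, and the ratio of 0.540 was below 1 in 6 of 6 libraries (exact permutation of signs, p = 0.03125, adjusted 0.0781). Only the unadjusted p of the second comparison is under 0.05. Both tests measure the spread over libraries and not that between baits. The exclusion was made in Vmn2r alone. The Vmn1r mean keeps chromosome 13, whose 29 baits had 1.25 loops per bait and library and 42.2% of the family's loops. On chromosomes 6, 7 and 17, Vmn1r baits had 0.312, 0.705 and 0.486. A family ratio without chromosome 13 was not tested.

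Loops of Vmn2r baits were longer than those of Vmn1r baits only while the chromosome 4 baits were included. The median distance between loop ends was 589 ± 100.1 kb at Vmn2r baits and 444 ± 81.2 kb at Vmn1r baits (SD, n = 6 libraries), higher at Vmn2r in 6 of 6 libraries, a ratio of 1.33 (exact permutation of signs, p = 0.03125, adjusted over 5 measures 0.156). Without chromosome 4, Vmn2r loops had a median of 446 ± 75.9 kb and the ratio was 1.01 (exact permutation of signs, p = 0.938). Both families were long-range beside the lists as a whole. Loops under 50 kb made up 3.64% at Vmn2r and 9.88% at Vmn1r baits, against 12.7% of all same-chromosome loops. Loops between 250 kb and 1 Mb made up 66.0% and 66.9%, against 41.2%.

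Most loops stayed within the receptor gene cluster of their bait, a cluster being a run of vomeronasal genes with under 1 Mb between neighbours. The far end lay in the own cluster for 183 of 247 Vmn2r loops (74.1%, 95% Wilson interval 68.3 to 79.2) and 355 of 516 Vmn1r loops (68.8%, 64.7 to 72.6). These intervals describe counting error alone. The difference of library means was 5.69 percentage points (exact permutation of signs, p = 0.188, n = 6). The chromosome 4 cluster, with 0 coding receptor genes, counts among these clusters. Without chromosome 4 the Vmn2r share was 71.9% (120 of 167) and the difference 2.56 points (exact permutation of signs, p = 0.531, n = 6). With all baits and clusters split at 200 kb the sign of the difference turned, to -25.8 points (exact permutation of signs, p = 0.03125, n = 6), as given in the closing section. The shares above hold for the 1 Mb definition only. A far end overlapped or lay within 2 kb of a vomeronasal gene other than those at the bait itself in 29.6% of Vmn2r and 46.5% of Vmn1r loops. Without chromosome 4 the Vmn2r share was 31.1%. Zinc finger genes were at 41 Vmn2r far ends, 3 of them outside chromosome 4, and at 30 Vmn1r far ends. Olfactory receptor genes were at 8 Vmn2r and 0 Vmn1r far ends. Loops joining 2 baits were rare, 13 of 763 (1.70%), as they were among all same-chromosome loops, at 2.79% to 5.65% per library. In 6 of the 13 both baits were vomeronasal, all Vmn1r, and 0 joined a Vmn2r bait to a Vmn1r bait.

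By chromosome, the largest number of loops per bait was on chromosome 4 for Vmn2r and, among chromosomes with over 1 bait, on chromosome 13 for Vmn1r. Vmn2r baits had 2.22 loops per bait and library on chromosome 4 (6 baits), 0.917 on chromosome 10 (6 baits) and 0.810 on chromosome 6 (7 baits). On chromosomes 3 and 5 the values were 0.333 and 0.375 (8 baits each), on chromosome 7 0.273 (22 baits) and on chromosome 17 0.219 (19 baits). Chromosome 14 had 3 Vmn2r baits with 4 loops in all and chromosome X 1 bait, of Vmn2r121, with 1 loop. Vmn1r baits had 1.25 loops per bait and library on chromosome 13 (29 baits), 0.705 on chromosome 7 (43 baits), 0.486 on chromosome 17 (12 baits) and 0.312 on chromosome 6 (39 baits). The single Vmn1r bait of chromosome 1, Vmn1r1, had 8 loops. Where a chromosome holds both families, Vmn1r baits had more loops per bait on chromosomes 7 and 17, and Vmn2r baits on chromosome 6.

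**Figure D1:**
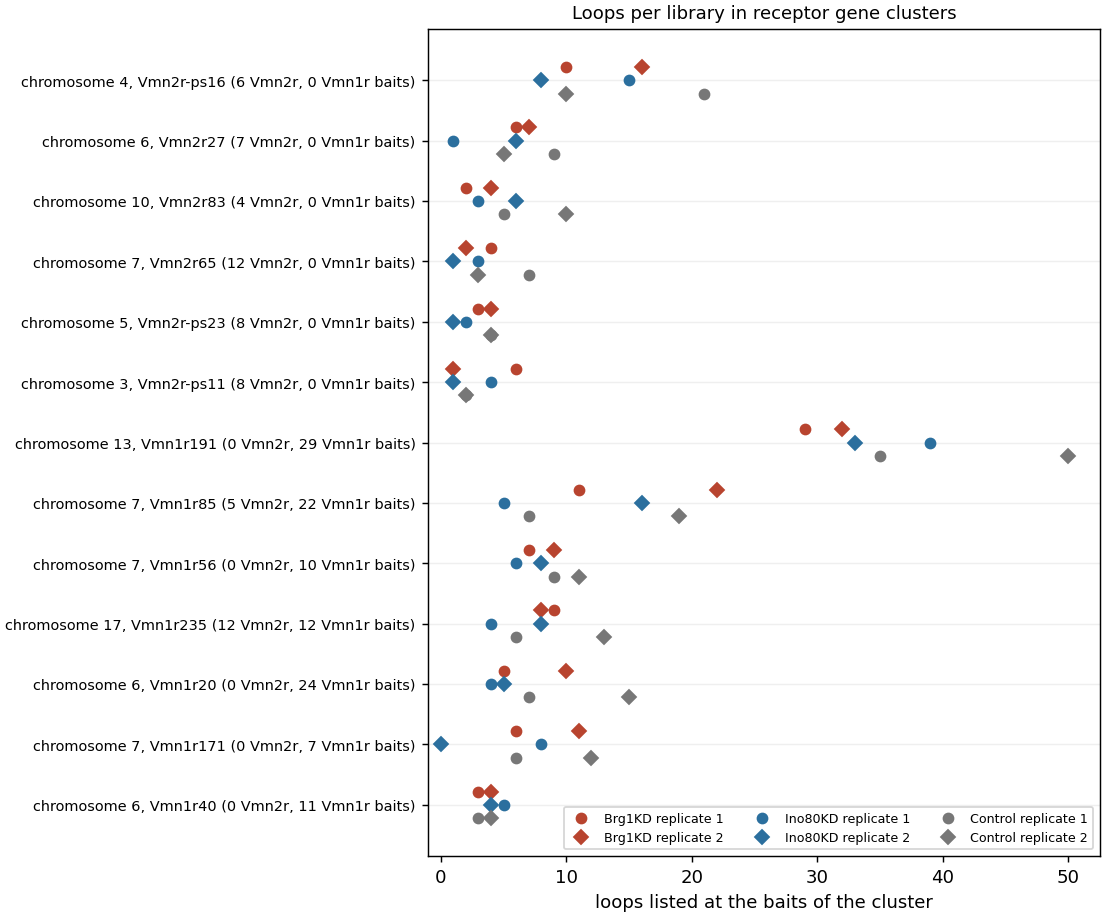
Loops listed in each library (x axis, counts) at the baits of the receptor gene clusters with at least 15 loops in all, 1 row per cluster, labelled by chromosome and most listed bait. Circles are replicate 1 and diamonds replicate 2 of Brg1KD (red), Ino80KD (blue) and Control (grey). The points of the chromosome 13 cluster lie to the right of the others, with 29 to 50 loops per library.

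The chromosome 13 cluster (22057168 to 23269501) is made up of Vmn1r genes and held 218 loops, 42.2% of that family's total. Its libraries listed 29 and 32 loops in Brg1KD, 39 and 33 in Ino80KD, and 35 and 50 in Control. In these counts the Ino80KD range overlapped that of Control, and each Brg1KD library was under each Control library. All 29 baits had a loop, 77.5% of the far ends lay in the cluster and 74.8% lay at another vomeronasal gene. Set per 1000 same-chromosome loops, the values were 2.36 and 2.46 in Brg1KD, 2.64 and 2.33 in Ino80KD and 2.27 and 3.46 in Control, with group means of 2.41, 2.49 and 2.87. On that scale the 3 groups overlapped, Control having both the lowest and the highest library.

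Vmn1r191, at the left side of that cluster (bait 22178843 to 22180702, overlapping the gene), was the most listed Vmn1r bait. It had 1 and 3 loops in Brg1KD, 4 and 6 in Ino80KD and 3 and 6 in Control. Its loops had a median length of 870 kb, and 3 each reached Vmn1r214, Vmn1r216 and Vmn1r218 near the opposite side of the cluster. Vmn1r214 (bait 23033218 to 23035077) had 4 and 3 loops in Brg1KD, 3 and 1 in Ino80KD and 3 and 2 in Control. Of its 16 loops 4 reached Vmn1r202.

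Vmn1r189 (bait 22101926 to 22103785) had 2 and 3 loops in Brg1KD, 4 and 2 in Ino80KD and 2 and 0 in Control, with a median length of 1047 kb, and 5 of the 13 reached Vmn1r221. Vmn1r216 (bait 23098029 to 23099888) had 3 and 1 in Brg1KD, 3 and 2 in Ino80KD and 2 and 1 in Control. For both genes the groups overlapped or touched. Vmn1r219 (bait 23161523 to 23163382) had 1 and 1 loops in Brg1KD, 3 and 2 in Ino80KD and 1 and 3 in Control, all of them inside the cluster, with 4 at Vmn1r202. The plot of loops along the cluster sets these baits among the others.

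**Figure D2:**
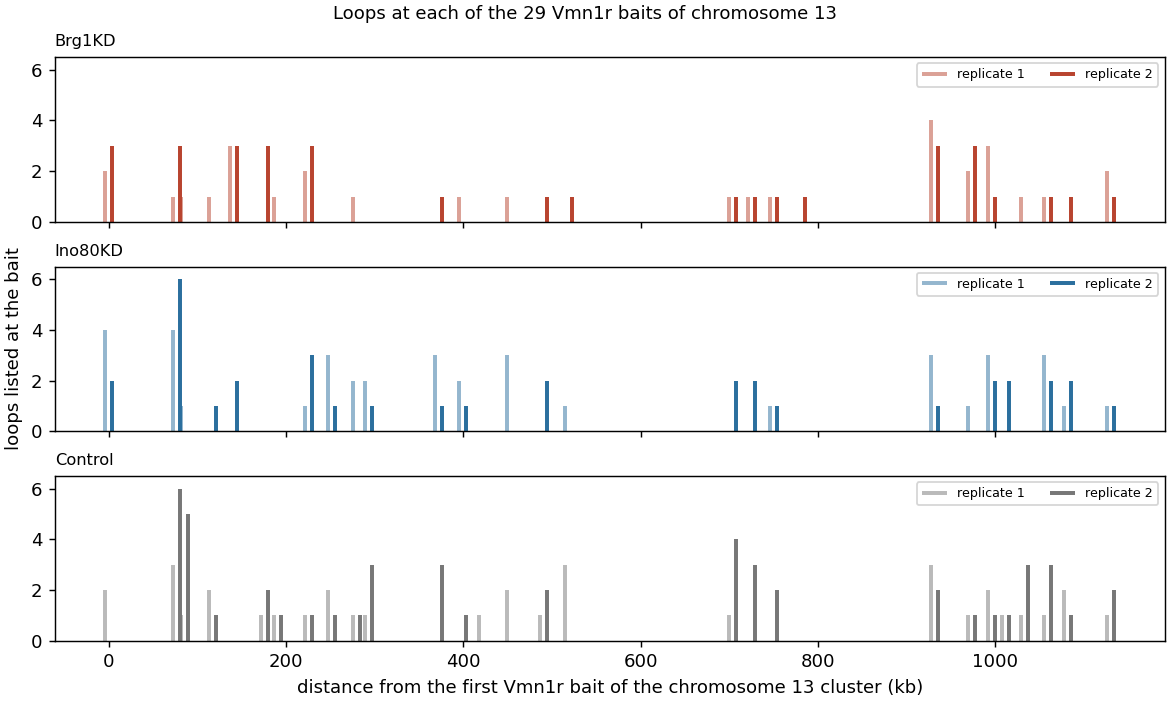
Loops listed at each of the 29 Vmn1r baits of the chromosome 13 cluster (y axis, counts) by distance from the first bait (x axis, kb), for Brg1KD, Ino80KD and Control. Pale lines are replicate 1 and dark lines replicate 2, drawn 8 kb apart for legibility, and 6 is the highest count, at Vmn1r191 in Ino80KD replicate 2 and Control replicate 2.

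Vmn1r197 (bait 22326791 to 22328650) was the bait of a loop of 518 kb to Vmn1r211 listed with identical ends in 5 of 6 libraries. The scores were 7.09 and 5.43 in Brg1KD, 5.96 and 7.29 in Ino80KD, and 9.32 in Control replicate 1, with no listing in Control replicate 2. The scores are the authors' own and are not compared between lists. In all, the bait had 2 and 3 loops in Brg1KD, 1 and 3 in Ino80KD and 1 and 1 in Control, so that both Brg1KD libraries were above both Control libraries.

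On chromosome 7 the Vmn1r genes fall into several clusters. The cluster from 7153726 to 13244458, with 22 Vmn1r and 5 Vmn2r baits, had 11 and 22 loops in Brg1KD, 5 and 16 in Ino80KD and 7 and 19 in Control. Replicate 1 was below replicate 2 in each group there, and the spread within groups exceeded the differences between them. The cluster from 20101158 to 24055691, with 99 Vmn1r genes and 7 baits, had 6 and 11 in Brg1KD, 8 and 0 in Ino80KD and 6 and 12 in Control, and its most listed baits were those of Vmn1r171 and Vmn1r175, with 9 loops each. Vmn1r90 (bait 14561623 to 14563482), a gene on its own, had a loop of 12.6 kb listed in all 6 libraries. The cluster from 5146490 to 6011010, led by Vmn1r56, had 7 and 9 loops in Brg1KD, 6 and 8 in Ino80KD and 9 and 11 in Control. Its Ino80KD libraries lay below both Control libraries.

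Vmn1r85 (bait 13084476 to 13086335), near the right edge of the large chromosome 7 cluster, had 3 and 5 loops in Brg1KD, 0 and 1 in Ino80KD and 0 and 3 in Control. Both Brg1KD libraries were above both Ino80KD libraries, and Brg1KD replicate 1 equalled Control replicate 2. None of its 12 loops ended in the receptor cluster. They reached the neighbouring genes Pla2g4c, a phospholipase, and Bsph1, a sperm-binding protein (3 loops each), among others. On chromosome 17, Vmn1r235 (bait 21259807 to 21261166) likewise had 0 of 11 loops inside its cluster. It had 1 and 2 loops in Brg1KD, 1 and 2 in Ino80KD and 2 and 3 in Control, and 6 of them, 1 per library, reached the zinc finger gene Zfp677 at 150 kb.

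On chromosome 6 the Vmn1r cluster led by Vmn1r20 (56923914 to 58504695) had 5 and 10 loops in Brg1KD, 4 and 5 in Ino80KD and 7 and 15 in Control. Both Ino80KD libraries lay below both Control libraries and the Brg1KD libraries overlapped with Control. The cluster led by Vmn1r40 (89698657 to 90270053) had 3 and 4 loops in Brg1KD, 5 and 4 in Ino80KD and 3 and 4 in Control. Vmn1r32 led another, smaller cluster with 4 loops in all.

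The Vmn2r cluster of chromosome 10 (78554051 to 79492154, 4 baits) had 2 and 4 loops in Brg1KD, 3 and 6 in Ino80KD and 5 and 10 in Control. The Brg1KD libraries were both under those of Control, and Ino80KD overlapped with Control. Vmn2r83 (bait 79467823 to 79469682) had 1 and 0 loops in Brg1KD, 2 and 3 in Ino80KD and 3 and 5 in Control, all inside the cluster. Of its 14 loops 4 reached Ccdc105 and 3 Slc1a6, a glutamate transporter, both of which lie within the cluster. Vmn2r82 (bait 79355456 to 79357315) had 1 and 2 loops in Brg1KD, 1 and 2 in Ino80KD and 1 and 3 in Control, and 4 each reached the same pair of genes.

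Vmn2r27 on chromosome 6 (bait 124231045 to 124232404) had 2 and 3 loops in Brg1KD, 0 and 0 in Ino80KD and 4 and 2 in Control. Both Ino80KD libraries were below every Brg1KD and Control library. Its far ends included Clec4a1, Clec4d and Clec4e, lectin receptors of immune cells, and Vmn2r19. The cluster around it (123308333 to 124231784) had 6 and 7 loops in Brg1KD, 1 and 6 in Ino80KD and 9 and 5 in Control, so at the level of the cluster the groups overlapped. On chromosome 3, Vmn2r-ps11 (bait 64844026 to 64845885), a transcribed pseudogene, had 3 and 1 loops in Brg1KD, 2 and 0 in Ino80KD and 0 and 0 in Control. None stayed in its cluster and 4 of 6 reached Gmps, an enzyme of guanine nucleotide synthesis. The other bait named by Vmn2r-ps11 (64718863 to 64720722) had the opposite pattern, 0 and 0 loops in Brg1KD, 0 and 0 in Ino80KD and 1 and 1 in Control.

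The mixed cluster of chromosome 17 around Vmn1r235, with 12 baits of each family, held 48 loops, 9 and 8 in Brg1KD, 4 and 8 in Ino80KD and 6 and 13 in Control. The cluster of 12 Vmn2r baits on chromosome 7, where Vmn2r65 and Vmn2r75 had 4 loops each and no bait had more, listed 4 and 2 loops in Brg1KD, 3 and 1 in Ino80KD and 7 and 3 in Control. The cluster led by Vmn2r-ps23 on chromosome 5 had 3 and 4 loops in Brg1KD, 2 and 1 in Ino80KD and 4 and 4 in Control, and the Ino80KD libraries lay below those of Control. Clusters led by Vmn2r117, Vmn2r118, Vmn2r120, Vmn2r87, Vmn2r61, Vmn2r-ps110 with Vmn2r89, Vmn1r184 and Vmn1r-ps87 had between 2 and 9 loops each over the 6 libraries. Set per 1000 same-chromosome loops, both Ino80KD libraries lay above both Control libraries in the clusters led by Vmn1r40, Vmn1r184 and Vmn2r87. They lay below in those led by Vmn1r56, Vmn1r20, Vmn2r-ps23 and, on chromosome 7, Vmn2r65 with Vmn2r75. The clusters of Vmn2r87 and Vmn1r184 held only 3 and 9 loops in all. In every other cluster the libraries of Ino80KD and Control overlapped on that scale. With exchangeable labels, 2 libraries stand apart from 2 others in either direction with a probability of 0.333. The clusters that stand apart, here and above, are therefore not read as responses of single clusters.

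Most vomeronasal loops were listed in a single library. Counted by identical ends there were 589 loops, of which 479 (81.3%) were in 1 library, against 68.2% of all 49989 same-chromosome loops. Only 5 (0.849%) were in all 6 libraries, against 3.09% overall. Olfactory receptor loops were in 1 library in 82.4% of cases and zinc finger loops in 68.8%. Of the 5 loops, 3 belonged to chromosome 4 baits in Vmn2r-ps16, with lengths of 481, 928 and 1015 kb, and the others were those of Vmn1r90 and Vmn1r235. Loops of Vmn1r1, Vmn1r181 and Vmn1r197 were in 5 libraries. Vmn2r loops without chromosome 4 were in 1 library in 90.0% of 150 cases, and 0 were in all 6. With a tolerance of 5 kb at each end, the share of a library's vomeronasal loops found in the other replicate was 24.1% to 27.8% in Brg1KD, 21.4% to 26.9% in Ino80KD and 20.7% to 28.6% in Control. Absence from a list does not show that a contact is absent from the cells.

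After Ino80 depletion, vomeronasal baits made up a smaller share of the listed loops than in Control. There were 108 and 137 vomeronasal loops in Brg1KD, 112 and 104 in Ino80KD, and 133 and 169 in Control. Per 1000 same-chromosome loops these were 8.77 and 10.51 in Brg1KD, 7.59 and 7.34 in Ino80KD, and 8.64 and 11.7 in Control. Both Ino80KD libraries lay below all other libraries, while Brg1KD and Control overlapped.

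Ino80KD averaged 7.47 ± 0.179 per 1000 and Control 10.17 ± 2.16 (SD, n = 2 each), a ratio of 0.734 (exact permutation, p = 0.33, the smallest 2 against 2 libraries allow). In batch 1, which holds 1 library per group, the ratio was 0.878. Ino80KD over Brg1KD, which averaged 9.64 ± 1.23, gave 0.774 (exact permutation, p = 0.33, n = 2 each) and 0.866 in batch 1. Brg1KD over Control gave 0.948 (exact permutation, p = 1, n = 2 each), and in batch 1, 1.01. With so few libraries no difference between groups could reach a p under 0.05.

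Ino80KD and Control libraries stood apart at Vmn2r baits and overlapped at Vmn1r baits. At Vmn2r baits there were 38 and 41 loops in Brg1KD, 33 and 33 in Ino80KD and 59 and 43 in Control, or per 1000 3.09 and 3.15, 2.24 and 2.33, and 3.83 and 2.98. Both Ino80KD libraries were below both Control libraries, with a ratio of 0.670 (exact permutation, p = 0.33, n = 2 each) and 0.583 in batch 1. Without chromosome 4 the Vmn2r counts were 28 and 25 in Brg1KD, 18 and 25 in Ino80KD and 38 and 33 in Control, with a ratio of 0.628 for Ino80KD over Control. At Vmn1r baits there were 70 and 96 loops in Brg1KD, 79 and 71 in Ino80KD and 74 and 126 in Control. Control replicate 1 lay below both Ino80KD libraries per 1000, and Control replicate 2 above all. The Vmn1r ratio of 0.766 became 1.11 in batch 1. The difference between the families in these ratios was tested on the Vmn2r over Vmn1r count ratio of each library, which was 0.543 and 0.427 in Brg1KD, 0.418 and 0.465 in Ino80KD and 0.797 and 0.341 in Control. The Vmn2r ratio of Ino80KD over Control was 0.845 times the Vmn1r ratio, with overlapping groups (exact permutation, p = 1, n = 2 each), and 0.772 times without chromosome 4 (exact permutation, p = 0.667, n = 2 each).

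**Figure D3:**
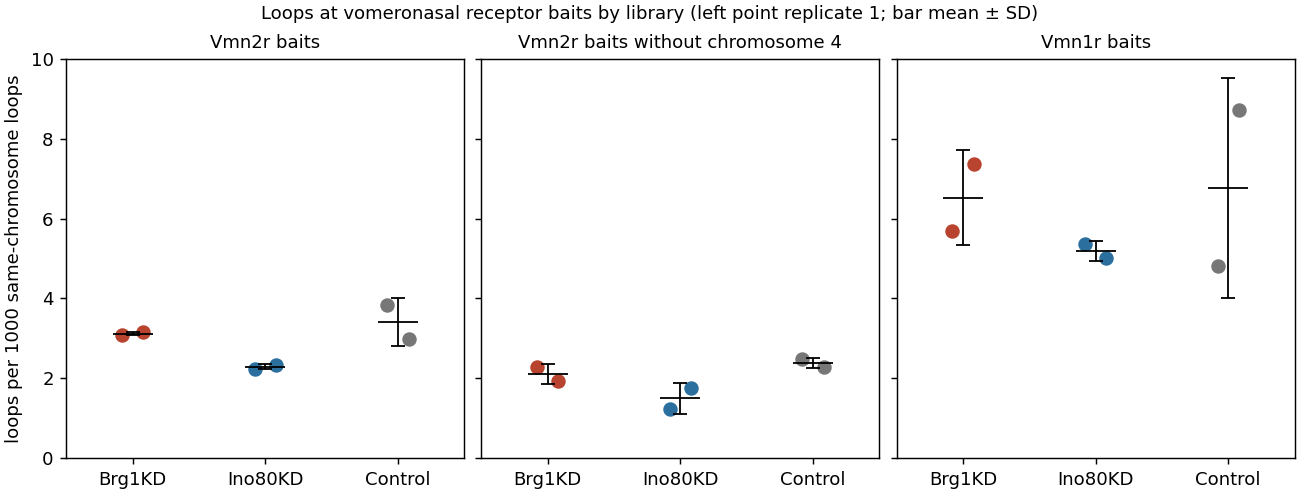
Loops per 1000 same-chromosome loops (y axis) at Vmn2r baits, Vmn2r baits without chromosome 4 and Vmn1r baits, for Brg1KD, Ino80KD and Control. Points are libraries, with replicate 1 on the left, and bars are the mean ± SD of 2 libraries. The Vmn2r points of Ino80KD lie at 2.24 and 2.33, and the Vmn1r points of Control are far apart at 4.81 and 8.72.

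The olfactory receptor genes, another large family of chemosensory receptors in clusters, had an Ino80KD over Control ratio of 0.839 per 1000 loops, and zinc finger genes one of 0.957. The vomeronasal ratio was 0.883 times that of the olfactory receptors and 0.776 times that of the zinc finger genes (exact permutation, p = 0.33 each, n = 2 each). For Brg1KD over Control the ratios were 0.945 at olfactory receptors and 0.921 at zinc finger genes.

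After Brg1 depletion the vomeronasal loops that were listed were shorter. The median length was 372 and 385 kb in Brg1KD, 552 and 471 kb in Ino80KD, and 592 and 459 kb in Control. Both Brg1KD libraries lay below all the others. Brg1KD averaged 378 ± 9.10 kb and Control 526 ± 93.6 kb (SD, n = 2 each), a ratio of 0.720 (exact permutation, p = 0.33), and in batch 1 it was 0.628. At Vmn1r baits the medians were 360 and 360 kb in Brg1KD, 478 and 457 kb in Ino80KD and 576 and 434 kb in Control. At Vmn2r baits the groups overlapped, with 466 and 641 kb in Brg1KD, 721 and 478 kb in Ino80KD and 639 and 587 kb in Control. Without chromosome 4 they did not overlap between Brg1KD and Control, with 350 and 384 kb against 533 and 472 kb. The length of all loops also varied, with list medians of 221 and 261 kb in Brg1KD, 243 and 247 kb in Ino80KD and 250 and 282 kb in Control. Divided by its list's median, the vomeronasal length gave a Brg1KD over Control ratio of 0.789, with overlapping groups (exact permutation, p = 0.667, n = 2 each).

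Counted another way, Vmn1r loops shorter than 250 kb, close to the median of all listings, made up 34.3% and 31.3% in Brg1KD, 20.3% and 22.5% in Ino80KD, and 24.3% and 26.2% in Control. Brg1KD averaged 32.8% ± 2.15, Ino80KD 21.4% ± 1.61 and Control 25.3% ± 1.32 (SD, n = 2 each), and the 3 groups did not overlap (exact permutation, p = 0.33 for each pair). At Vmn2r baits the groups overlapped, with means of 20.4% ± 4.67 in Brg1KD, 18.2% ± 8.57 in Ino80KD and 13.5% ± 7.16 in Control (SD, n = 2 each, exact permutation, p = 0.667 for each depletion against Control), and Ino80KD lay above Control there. Over both families the means were 28.8% in Brg1KD, 20.5% in Ino80KD and 20.8% in Control, so that Ino80KD and Control did not stand apart (exact permutation, p = 1, n = 2 each). Among all same-chromosome loops these shares were 55.7% and 48.0% in Brg1KD, 51.3% and 50.5% in Ino80KD and 50.1% and 45.0% in Control. This bound was set after the lengths had been seen.

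**Figure D4:**
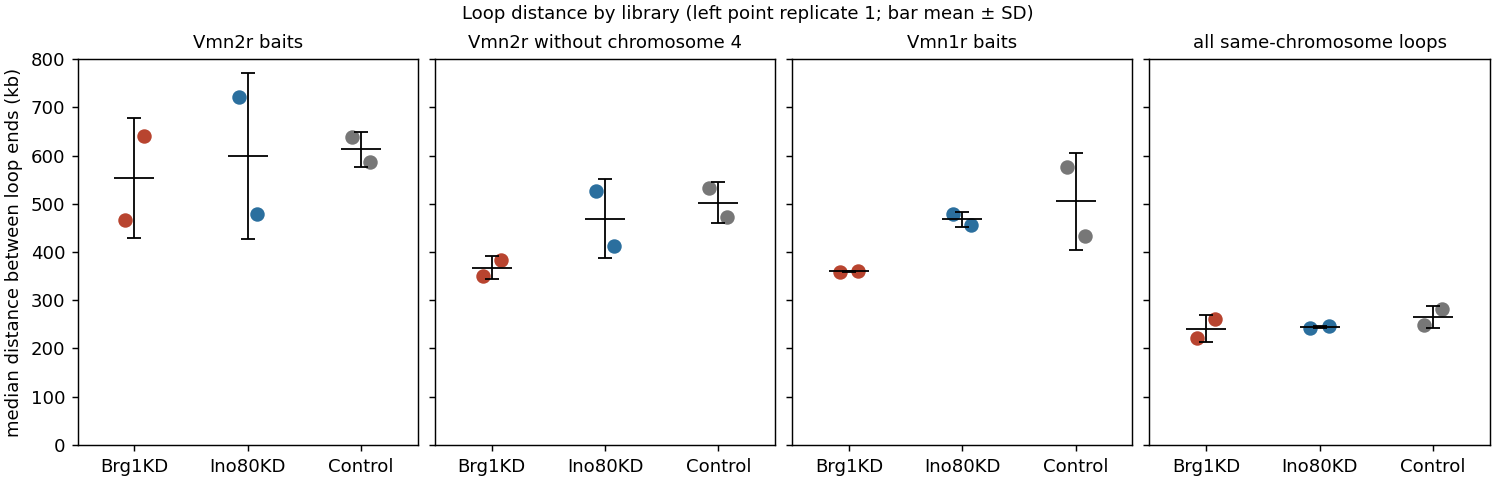
Median distance between loop ends (y axis, kb) in each library at Vmn2r baits, Vmn2r baits without chromosome 4, Vmn1r baits and all same-chromosome loops, for Brg1KD, Ino80KD and Control. Points are libraries, with replicate 1 on the left, and bars are the mean ± SD of 2 libraries. The Vmn1r points of Brg1KD coincide near 360 kb, below those of Ino80KD and Control.

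Single baits seldom separated the groups. Both Brg1KD libraries had fewer loops than both Control libraries at 4 of 66 Vmn2r and 10 of 116 Vmn1r baits with a loop, against 7.89% of all 17310 such baits. They had more at 2 Vmn2r and 6 Vmn1r baits, against 4.09% of all. Both Ino80KD libraries had fewer than both Control libraries at 5 Vmn2r and 11 Vmn1r baits, against 6.24% of all, and more at 1 and 6, against 5.41%. Ino80KD had fewer than Brg1KD at 1 Vmn2r bait, that of Vmn2r27, and at 11 Vmn1r baits (9.48%), against 4.39% of all, and more at 3 and 10, against 7.86%.

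The authors also deposited a table of fold changes for each depletion against Control, whose direction the header leaves unstated. Values above 0 are read here as higher after depletion. By the authors' deposited table for Brg1KD, loops listed in both Brg1KD and neither Control library were above 0 in 83.4% of cases, and those listed in both Control and neither Brg1KD library in 16.8%. The authors' deposited table for Ino80KD gave 86.3% and 15.4%. The tables share the Control libraries, so their values are given side by side and no likeness between them is drawn. An entry is a bait with a region, and regions of a bait can overlap, so entries are not independent.

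Fold changes at vomeronasal baits leaned below 0 for Ino80KD and did not for Brg1KD. In the authors' deposited table for Ino80KD, 79 of 103 Vmn2r entries (76.7%, 95% Wilson interval 67.7 to 83.8) and 148 of 223 Vmn1r entries (66.4%, 59.9 to 72.2) were below 0, against 49.6% of all 34774 entries. The median log2 fold change in that authors' deposited table was -0.21 at Vmn2r and -0.13 at Vmn1r, against 0.0023 over all entries. Without chromosome 4, 81.6% of Vmn2r entries in the authors' deposited table for Ino80KD were below 0.

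For Brg1KD the authors' deposited table had 53 of 114 Vmn2r entries (46.5%, 37.6 to 55.6) and 108 of 244 Vmn1r entries (44.3%, 38.2 to 50.5) below 0, against 51.3% of all 33243. The medians in the authors' deposited table for Brg1KD were 0.03 and 0.04, against -0.0084 over all entries. Olfactory receptor entries were below 0 in 71.6% of cases in the authors' deposited table for Ino80KD and 49.6% in that for Brg1KD. Zinc finger entries were below 0 in 50.8% and 52.2% in the same pair of the authors' deposited tables. Olfactory receptor genes thus leaned below 0 as well.

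**Figure D5:**
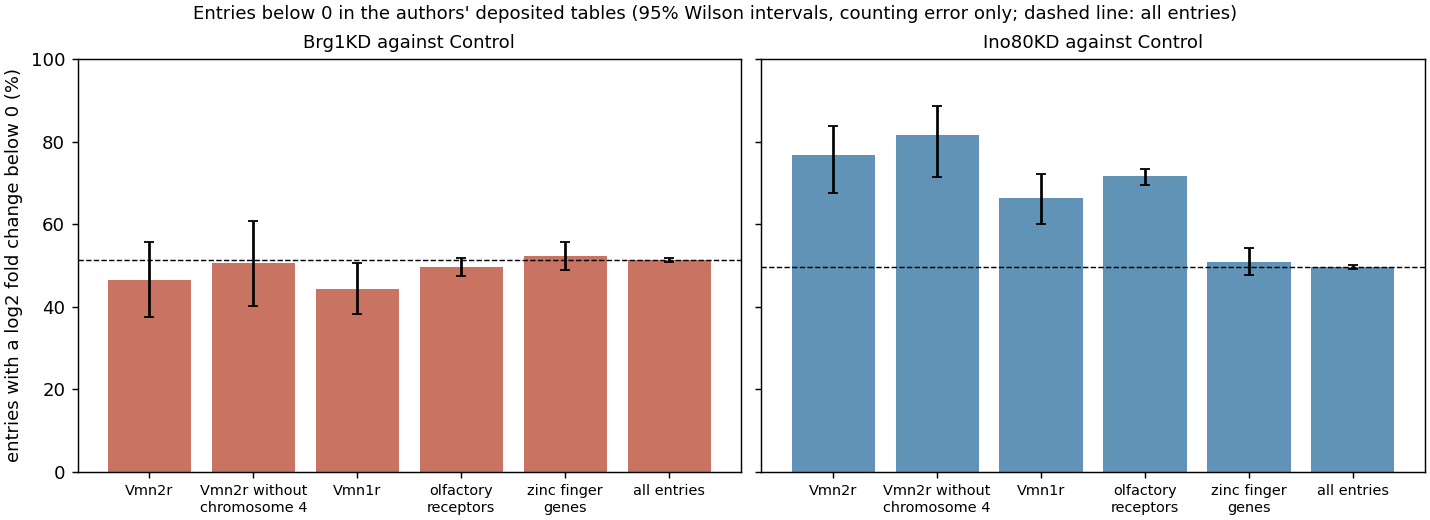
Share of entries with a log2 fold change below 0 (y axis, %) in the authors' deposited tables for Brg1KD (left) and Ino80KD (right), each against Control, by gene family. Error bars are 95% Wilson intervals for counting error only, and the dashed line is the share over all entries. For Ino80KD the Vmn2r bar stands at 76.7%, the Vmn1r bar at 66.4% and the olfactory receptor bar at 71.6%.

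Vomeronasal entries were faint and long-range. Within the authors' deposited table for Ino80KD, the median signal was 22.8 at Vmn2r and 20.4 at Vmn1r entries, against 62.7 over all, and the median distance was 558 and 401 kb, against 258 kb. The authors' deposited table for Brg1KD gave median signals of 23.6 and 21.6, against 59.5, and distances of 463 and 382 kb, against 255 kb. Olfactory receptor entries in the authors' deposited table for Ino80KD had a median signal of 24.7 and a distance of 349 kb. The part of signal and distance in the lean below 0 was not tested. Of the 29 vomeronasal entries with a signal above the median of all, 86.2% (95% Wilson interval 69.4 to 94.5) were below 0 in the authors' deposited table for Ino80KD. Of 41 such entries in the authors' deposited table for Brg1KD, 39.0% (25.7 to 54.3) were below 0.

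By chromosome, the lean for Ino80KD was seen in both families. On chromosome 10, 20 of 20 Vmn2r entries were below 0 in the authors' deposited table for Ino80KD, median log2 fold change -0.30, and 8 of 17 in that for Brg1KD, median 0.03. These entries come from 5 baits in each of the authors' deposited tables. On chromosome 6, the authors' deposited table for Ino80KD had 12 of 15 Vmn2r and 27 of 34 Vmn1r entries below 0, and that for Brg1KD 9 of 16 and 16 of 37. Chromosome 7 had 8 of 11 Vmn2r and 48 of 68 Vmn1r entries below 0 in the authors' deposited table for Ino80KD, against 12 of 19 and 32 of 81 in that for Brg1KD. The large Vmn1r cluster of chromosome 13 showed less of a lean, with 62 of 106 entries below 0 and a median value of -0.06 as the authors' deposited table for Ino80KD gave it. The authors' deposited table for Brg1KD had 53 of 105 entries below 0 there.

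Entries were also averaged per bait, weighted by their inverse squared errors. By the authors' deposited table for Ino80KD the mean was below 0 at 33 of 42 Vmn2r and 67 of 94 Vmn1r baits, and in that for Brg1KD at 25 of 48 and 41 of 99. The tables hold no entry at 26 Vmn2r and 15 Vmn1r baits.

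Few single entries passed even an unadjusted threshold. Within the authors' deposited table for Brg1KD, 1 vomeronasal entry of 358 had an unadjusted p under 0.05 and was lower, against 0.827% of all entries, and 1 was higher, against 0.373%. For Ino80KD the authors' deposited table had 2 of 326 lower, against 0.382%, and 0 higher, against 0.912%. After adjustment 0 entries of the authors' deposited tables passed, among vomeronasal baits or over all baits.

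The lowest Brg1KD entry joined Vmn2r82 to a region of chromosome 10 (78740001 to 78860000) that holds Ccdc105, Slc1a6 and Olfr1356, with a log2 fold change of -1.11 ± 0.55 (SE, unadjusted p = 0.0443) in the authors' deposited table. A loop of that bait to the region was listed 0 and 0 times in Brg1KD, 1 and 1 in Ino80KD and 1 and 2 in Control. The next bait in that direction was Vmn2r11 on chromosome 5, whose contact with a region holding Vmn2r16 and Vmn2r17 had -0.73 ± 0.40 (SE, unadjusted p = 0.0687) in the authors' deposited table. Above 0, the first entry of the authors' deposited table for Brg1KD was Vmn1r197 with the region of Vmn1r210, Vmn1r211 and Vmn1r212, at 1.07 ± 0.52 (SE, unadjusted p = 0.0406). The same contact had 0.81 ± 0.54 (SE, unadjusted p = 0.132) by the authors' deposited table for Ino80KD. Loops of Vmn1r197 to that region numbered 2 and 2 in Brg1KD, 1 and 2 in Ino80KD and 1 and 0 in Control. Vmn1r85 with the region of Pla2g4c, Bsph1 and Cabp5 had 0.50 ± 0.30 (SE, unadjusted p = 0.0922) by the authors' deposited table for Brg1KD, with 3 and 4 loops in Brg1KD, 0 and 1 in Ino80KD and 0 and 1 in Control. Vmn2r114, with a region holding Vmn2r115 to Vmn2r117, followed at 0.63 ± 0.40 (SE, unadjusted p = 0.112) in the authors' deposited table.

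The 2 lowest Ino80KD entries by p were short contacts within clusters. Vmn2r108 on chromosome 17, with a region beside the bait (20400001 to 20480000), had a log2 fold change of -0.66 ± 0.27 (SE, unadjusted p = 0.0152) in the authors' deposited table. Vmn1r6 on chromosome 6, with the region of its neighbours Vmn1r4 and Vmn1r5, had -0.59 ± 0.27 (SE, unadjusted p = 0.0319) in the authors' deposited table. Both entries had a signal of about 100 in the authors' deposited table (101.2 and 103.0), above the median of all entries. Vmn1r198 with the region of Vmn1r217 to Vmn1r220, 796 kb away, had -1.45 ± 0.79 (SE, unadjusted p = 0.0669) in the authors' deposited table, and a loop was listed 0 and 0 times in Brg1KD, 0 and 0 in Ino80KD and 1 and 1 in Control. Vmn2r120 with a region that reaches Adgre1, an adhesion receptor of macrophages, had -0.50 ± 0.28 (SE, unadjusted p = 0.0799) in the authors' deposited table. In the other direction, Vmn2r25, Vmn1r222 and Vmn1r32 had unadjusted p-values of 0.158, 0.167 and 0.188, also in the authors' deposited table for Ino80KD.

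Other genes of vomeronasal neurons, a list of 29, had baits for 26 genes, with 317 loops over the libraries. By the authors' deposited table for Brg1KD 43 of their 117 entries were below 0, against 51.3% of all entries, and 1 passed at an unadjusted 0.05, against 1.2%. The authors' deposited table for Ino80KD had 81 of 128 below 0, against 49.6%, and 3 passed, against 1.29%. The bait of Fpr-rs7 is also that of the member Vmn2r-ps126, and its 2 entries in each of the authors' deposited tables are counted here too. Means given below are weighted over a gene's entries, and their SE takes the entries as independent, which makes it too small. Trpc2, the cation channel of vomeronasal transduction, had 1 and 2 loops in Brg1KD, 7 and 3 in Ino80KD and 3 and 1 in Control, with a weighted mean of 0.09 ± 0.08 (SE) in the authors' deposited table for Ino80KD. Gnai2 had 0.21 ± 0.11 (SE) there and Gnao1 0.18 ± 0.23 (SE), again from the authors' deposited table. Their partner subunits Gng8 and Gng13 had 0.14 ± 0.13 and 0.19 ± 0.19 (SE) in the authors' deposited table for Ino80KD. Kirrel2, a cell adhesion protein of sensory axons, had 62 loops, 11 and 7 in Brg1KD, 10 and 13 in Ino80KD and 10 and 11 in Control. In the authors' deposited table for Ino80KD its mean was 0.27 ± 0.05 (SE) over 18 entries, and the 3 entries of the list with an unadjusted p under 0.05 were its own.

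Meis2, a homeodomain factor, had 4 and 3 loops in Brg1KD, 3 and 3 in Ino80KD and 5 and 3 in Control. Its weighted mean was -0.27 ± 0.09 (SE) in the authors' deposited table for Brg1KD, with 4 of 4 entries below 0 and the list's only unadjusted p under 0.05, and -0.07 ± 0.09 in that for Ino80KD. Ano1, Ano2, Kirrel3, Tfap2e and Bcl11b had 1 to 5 loops each over the 6 libraries.

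The H2-M10 genes and H2-M1, H2-M9 and H2-M11, class I molecules of which several are expressed in Vmn2r neurons, lay in a cluster of their own. H2-M10.5 had 3 and 7 loops in Brg1KD, 7 and 3 in Ino80KD and 2 and 6 in Control, and H2-M10.3 had 3 and 4, 2 and 3, and 6 and 4. All entries of H2-M10.2 (9), H2-M10.3 (10), H2-M10.4 (6) and H2-M10.5 (12) were below 0 in the authors' deposited table for Ino80KD, with weighted means of -0.29 ± 0.12, -0.26 ± 0.11, -0.21 ± 0.14 and -0.21 ± 0.10 (SE). Within the authors' deposited table for Brg1KD the same genes had 4 of 7, 1 of 10, 1 of 7 and 4 of 11 entries below 0. H2-M10.1, H2-M10.6 and H2-M9 had means of -0.15 ± 0.13, -0.12 ± 0.15 and -0.20 ± 0.23 (SE) in the authors' deposited table for Ino80KD. H2-M11 had 7 and 8 loops in Brg1KD, 1 and 0 in Ino80KD and 4 and 2 in Control, a set of counts in which the 3 groups did not overlap. Its mean was 0.23 ± 0.08 (SE) in the authors' deposited table for Brg1KD and -0.24 ± 0.12 (SE) in that for Ino80KD. H2-M1 had 1 and 0 loops in Brg1KD, 1 and 2 in Ino80KD and 1 and 6 in Control.

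The formyl peptide receptor genes Fpr-rs3, Fpr-rs4, Fpr-rs6, Fpr-rs7 and Fpr3, some of which are expressed in vomeronasal neurons, had 1 to 4 loops each. All of their 7 Ino80KD entries were below 0 in the authors' deposited table, 2 of them at the bait that Fpr-rs7 shares with Vmn2r-ps126.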

How the data were processed

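Promoter-capture Micro-C was measured in 6 libraries, 2 per group. Fixation used DSG with formaldehyde, micrococcal nuclease cut the chromatin, and a capture kit enriched ligated fragments for promoters, per the labels' protocols. The submitters' processing notes name mm10 and bedtools. Which loop caller was used is not stated in any source at hand. The authors deposited per library a list of loops with a score, from 5 up, which is their own and has no stated scale. The authors also deposited a table per depletion with the signal of each bait and region averaged over libraries, its log2 fold change and standard error, and raw and adjusted p-values, per the file headers. Distances between bait and region in these tables are the authors' deposited averages.

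Baits were matched to RefSeq genes of GRCm38.p6, whose chromosomes are those of mm10, within 2 kb. The annotation used has no strand, and only genes placed on chromosomes were used. Loops were counted per bait, cluster, library and 1000 same-chromosome loops, and loop length is the distance between the midpoints of its ends. Tests were exact two-sided permutation tests over libraries, and p-values adjusted over a family of measures follow Benjamini and Hochberg. No count model was possible because contact counts per library were not used here, the lists holding scores. Deposited fold changes were described by counts and medians. Wilson intervals are at 95%. Named were the 8 most listed baits of each family, the most listed bait of each cluster, loops in all 6 libraries, the 4 entries of smallest p in each direction of each table, and a list of other vomeronasal genes, with a few loops in 5 libraries and Zfp, Clec4 and other genes at far ends named after their values were seen. Members, lists and alternatives were chosen with earlier results of these data known. No label states that replicates are separate cultures, so p-values may measure technical spread alone. Alternatives covered the score, the gene extension, pseudogenes, nearby genes, distance, denominators, batch 1, clusters, the replicate block and single libraries left out, and the chromosome 4 baits, the alternatives by family and those for loop length between groups were added after seeing the data. The interval and permutation code was checked on simulated intervals and values. Python 3.11.15, pandas 2.3.3, NumPy 2.4.6, SciPy 1.17.1 and matplotlib 3.10.9 were used.

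Same-numbered libraries were checked for pairing by the correlation of their deviations from the group means over 17271 baits, which was 0.0516 between Brg1KD and Control, 0.00264 between Ino80KD and Control and -0.00673 between Ino80KD and Brg1KD. For Ino80KD and Brg1KD the labels give the pairing, since replicate 1 of both is in batch 1 and replicate 2 of both in batch 3.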

Additional observations from a re-analysis of the deposited data

Results flagged for a closer look

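Interchromosomal loops lie outside the measurement described above, and vomeronasal baits had more of them in Brg1KD replicate 1 than in either Control library. There were 60 and 22 in Brg1KD, 13 and 7 in Ino80KD, and 27 and 23 in Control. Per 1000 interchromosomal loops of the list these were 11.4 and 6.19 in Brg1KD, 3.37 and 2.00 in Ino80KD, and 7.38 and 6.10 in Control. Of the 60, 25 were at Vmn2r and 35 at Vmn1r baits, spread over 47 baits with at most 3 at any 1 bait. Brg1KD replicate 1 also had the longest interchromosomal list, 5254 loops, against 3660 and 3769 in Control, and the excess was not seen in Brg1KD replicate 2. Both Ino80KD libraries were below both Control libraries per 1000, as they were for same-chromosome loops.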

How the results depend on the processing

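Ino80KD stayed below Control in vomeronasal loops per 1000 under all 17 alternatives, with ratios of 0.638 to 0.864 when 1 library was left out. Since both Ino80KD libraries lay below both Control libraries, leaving a library out, batch 1 and the replicate block could not turn this direction. With scores of at least 7 the ratio was 0.796 but the groups overlapped (exact permutation, p = 0.667), as they did at Vmn1r baits alone. Ino80KD over Brg1KD ranged from 0.710 to 0.851 with 1 library left out, which again could not turn its direction. That ratio turned to 1.03 with scores of at least 7. Brg1KD over Control had no settled direction: it was 1.01 in batch 1, and ranged from 0.824 to 1.12 with 1 library left out, turning above 1 without Brg1KD replicate 1 (1.03) and without Control replicate 2 (1.12). The shorter vomeronasal loops of Brg1KD kept their direction under 10 alternatives, with ratios of 0.639 to 0.823 with 1 library left out. Both Brg1KD medians lay below both Control medians. Leaving a library out, batch 1 and the replicate block could therefore not turn this direction either.

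With the replicate block, which the batch labels justify only for Ino80KD and Brg1KD, the ratios were 0.777 for that pair, 0.742 for Ino80KD over Control, 0.955 for Brg1KD over Control and 0.725 for loop length. Exact p for 2 pairs cannot go below 0.5, so this says nothing of how pairing bears on the calls.

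Between the families, loops per Vmn2r bait over loops per Vmn1r bait became 0.513 with coding genes only and 0.534 without baits near other genes. Without chromosome 4 the ratio was 0.540, and each of these had an exact permutation p of 0.03125. All of these settings leave out the chromosome 4 baits, so they are not separate checks. Per Mb of cluster, with clusters without a bait included, the ratio was 0.291. That unit, like the number of baits, scales every library by the same factor. The permutation p-values over libraries measure the spread between libraries and do not bear on the choice of unit, and none is given per Mb. With scores of at least 7 the ratio per bait turned to 1.15. That setting keeps the chromosome 4 baits and was not run without them. The library median scores averaged 5.90 at Vmn2r baits, 5.61 at those without chromosome 4 and 5.78 at Vmn1r baits. At all scores the ratio per bait ranged from 0.672 to 0.797 with 1 library left out. The loop length ratio fell to 1.01 with coding genes only, 1.05 without baits near other genes and 1.01 without chromosome 4. These settings again all leave out the chromosome 4 baits. The length ratio ranged from 1.25 to 1.39 with 1 library left out, where 5 libraries cannot give p below 0.0625. The difference in own-cluster share, Vmn2r minus Vmn1r, became 20.6 percentage points with scores of at least 7, again with the chromosome 4 baits. It became 8.85 with coding genes only. It turned to -25.8 with clusters split at 200 kb, and each of these had an exact permutation p of 0.03125. With 1 library left out the difference ranged from 4.20 to 9.30. Except for the cluster definition, which shortens clusters by construction, the cause was not tested.

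The share of entries below 0 in the authors' deposited table for Ino80KD, 69.6% for both families, became 91.7% with 1 value per cluster (24 clusters, 95% Wilson interval 74.2 to 97.7). Above the median signal it was 86.2% in the same authors' deposited table (29 entries, 69.4 to 94.5). For Brg1KD the authors' deposited table gave 45.0%, which became 37.5% (24 clusters, 21.2 to 57.3) and 39.0% (41 entries, 25.7 to 54.3). Low listing counts per bait, reads shared by gene copies and the unknown depth limit all values here.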
